A study of Mus musculus with 16 samples.

Results

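Transcripts of 10 heat shock and chaperone genes were followed by RNA-Seq in splenic memory CD4+ T cells of mice lacking HP1α or HP1γ, proteins that bind methylated histone H3 in heterochromatin. The genes, Hspa1a, Hspa1b, Hsph1, Dnajb1, Hsp90aa1, Hsp90ab1, Hspa8, Hspe1, Hspd1 and Hspa5, were taken by symbol, each matched 1 row, and they are 10 of the 56748 genes in the table. They were chosen as a group of related function, with earlier results of these data known. The 16 samples formed 4 groups of 4, which the labels name HP1a KO, HP1a WT, HP1g KO and HP1g WT and which are written here as HP1α and HP1γ. HP1α KO mice carried an Hp1a allele excised by CMV-cre, which acts in all tissues, and HP1α WT mice were +/+ littermates from crosses of heterozygous parents. HP1γ KO mice were homozygous for a floxed Hp1g allele and carried Cd4-cre, which acts in T cells, and HP1γ WT mice were littermates with the floxed allele and no Cre, so that the loss of HP1γ and the presence of Cre cannot be told apart. All groups were of mixed 129/Sv and C57BL/6 background, sex-matched and 6 to 12 weeks old, and the sorted cells were CD4+ CD25low/- CD62L- CD44high. The sources do not say that each sample was a separate animal, so p-values measure the spread between these samples only.

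Heat shock proteins are chaperones that bind unfolded or partly folded proteins. HSF1, the main transcription factor of the heat shock response, is held in an inactive state in unstressed cells and binds arrays of the short motif nGAAn, called heat shock elements, when unfolded protein accumulates. HSP70 proteins work with J-domain partners and nucleotide exchange factors, HSP90 acts on later folding steps of kinases and receptors, and the mitochondrial chaperonin and the HSP70 of the endoplasmic reticulum serve their own compartments.

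Hspa1a and Hspa1b encode the inducible cytosolic HSP70 and lie beside each other on the minus strand of chromosome 17 (GRCm39), at chr17:35188166-35191132 and chr17:35175412-35178214, each as a gene of 1 exon. Their transcripts shared a stretch of 2201 nt at 99.2% identity, so that reads could be split between them by the authors' counting, and the pair is also given as a sum. The 250 bases before the start of the canonical transcript differed at 3 positions between the genes (98.8% identity). They are shown because both genes vary together in the data. The windows are chr17:35191133-35191382 and chr17:35178215-35178464, read on the minus strand 5′ to 3′, with capitals for a heat shock element, GAANNTTC, whose first base lies 104 bases before the start.

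Hspa1a: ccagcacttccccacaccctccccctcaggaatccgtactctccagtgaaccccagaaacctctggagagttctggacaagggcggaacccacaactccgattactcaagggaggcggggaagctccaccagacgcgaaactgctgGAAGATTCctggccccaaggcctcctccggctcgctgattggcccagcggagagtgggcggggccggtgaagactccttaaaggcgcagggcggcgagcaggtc

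Hspa1b: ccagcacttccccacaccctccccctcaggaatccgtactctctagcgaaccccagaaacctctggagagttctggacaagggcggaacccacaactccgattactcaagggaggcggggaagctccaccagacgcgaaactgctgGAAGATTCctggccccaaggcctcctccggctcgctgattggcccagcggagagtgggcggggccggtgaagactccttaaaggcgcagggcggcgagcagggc

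A heat shock element, GAANNTTC or TTCNNGAA on either strand, was found in the 250-base window of 12.3% of 21770 protein-coding genes, by exact match. Of the 10 genes, Hspa1a, Hspa1b, Hsph1, Hspd1 and Hspe1 held at least 1 in this window. Hspd1 and Hspe1, the mitochondrial HSP60 chaperonin and its HSP10 partner, are transcribed in opposite directions from a shared region on chromosome 1 that held 3 overlapping matches, shown here on the strand of Hspe1 (chr1:55127212-55127241). In Hsph1, which encodes HSP110, a nucleotide exchange factor for HSP70, the match began 28 bases before the start (chr5:149559816-149559845, minus strand). Hspa5 encodes BiP, the HSP70 of the endoplasmic reticulum, and held in place of these a CCAAT and a CCACG separated by 9 bases, the endoplasmic reticulum stress element, which was present in 0.115% of windows (chr2:34662032-34662061, plus strand). Only 30 bases around each match are printed, because these windows overlap annotated exons.

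Hsph1: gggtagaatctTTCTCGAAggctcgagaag

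Hspe1: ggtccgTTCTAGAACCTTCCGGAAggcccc

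Hspa5: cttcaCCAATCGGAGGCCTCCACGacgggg

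No exact match to either heat shock element was found in the windows of Dnajb1, Hsp90aa1, Hsp90ab1 and Hspa8, which says only that these letters are not in these 250 bases. Dnajb1 (chr8:84334811-84339820) encodes the J-domain partner HSP40, Hsp90aa1 (chr12:110656842-110669166) and Hsp90ab1 (chr17:45878552-45891949) the inducible and constitutive forms of cytosolic HSP90, and Hspa8 (chr9:40711630-40731039) the constitutive HSC70. Stretches of at least 150 nt at 98% identity or more were shared by Hsp90aa1 with 3 other annotated genes, by Hspa8 with 3, by Hspd1 with 2 and by Hspe1 with 1, most of them pseudogenes, so that the counts of these genes are also uncertain to that extent. No such stretch was found for Hsph1, Dnajb1, Hsp90ab1 and Hspa5.

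The samples held between 26694045 and 40199637 counts, and the 10 genes took between 0.477% and 0.726% of them. All 8 CD4 T cell markers were detected, with summed levels between 4717 and 5427 CPM (counts scaled to library size) across samples, against 6.97 to 26.8 for 7 B cell markers and 27.9 to 125 for 7 monocyte and macrophage markers. The targeted genes were lower in the knockouts: Cbx3, which encodes HP1γ, was at 45.4 to 49.3 CPM in HP1γ KO and 73.4 to 91.9 in HP1γ WT (log2 fold change -0.82, SE 0.0790, adjusted p = 0.00150, edgeR). Cbx5, which encodes HP1α, was at 23.0 to 29.2 CPM in HP1α KO and 33.9 to 54.6 in HP1α WT without passing the adjusted test (log2 fold change -0.58, SE 0.145, adjusted p = 0.946 by edgeR). In bulk RNA, fewer cells of a type and less RNA per cell cannot be told apart.

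The genes covered more than 2 orders of magnitude in TPM (transcript levels scaled for length and library), which can be compared between genes. Hspa8 was highest, with a median of 1692 TPM over the 16 samples, above Hsp90ab1 (1182) in 16 of 16 samples. Hsp90ab1 and Hspa5 (1080) were not separated, since Hsp90ab1 was the higher of the pair in 12 of 16 samples and their mean difference of 0.13 on the log2 scale was smaller than its SD of 0.19. Hspa5 exceeded Hsp90aa1 (448) in every sample, and Hsp90aa1 exceeded Hspe1 (133). Dnajb1 (89.8) and Hspd1 (83.4) again did not differ beyond their spread, with a mean log2 difference of 0.19 and an SD of 0.20. Hsph1 followed with a median of 50.8 TPM. The inducible HSP70 genes were lowest, with medians of 12.5 TPM for Hspa1b and 4.90 for Hspa1a, although Hspa1b exceeded Hsph1 in 2 of the 16 samples.

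The spread between samples of 1 group differed widely among the genes. It is given as the SD of log2 CPM within groups, pooled over the 4 groups, beside all 15776 genes tested. Hspa1b had an SD of 1.59, more than that of 98.7% of genes, and Hspa1a an SD of 1.46, more than 98.5%. Hsph1 followed with 0.615 (89.3%). Set against genes of a similar mean level, within 0.5 log2, these 3 were near the top (100%, 99.9% and 99.9%), where the median SD was 0.137, 0.193 and 0.111. The other 7 genes had SDs between 0.129 for Hspe1 (27.7% of all tested genes) and 0.214 for Hspa8 (52.3%). The median over all tested genes was 0.202, and of these 7 only Hspa8 lay above it. Against genes of a similar level they too were on the high side: Hspd1 exceeded 89.8% of them, Dnajb1 84.9%, Hspa8 84.4%, Hsp90aa1 84.3%, Hsp90ab1 77.4%, Hspa5 69.1% and Hspe1 59.8%.

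**Figure D1:**
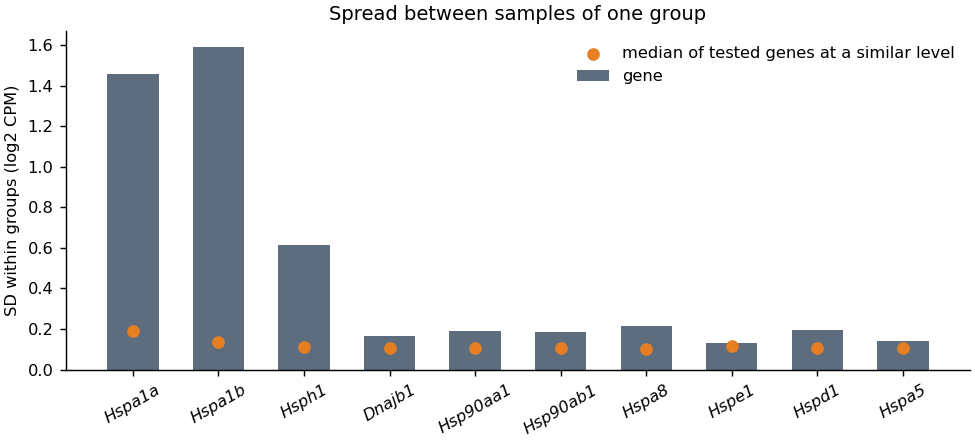
Bars show the within-group SD of log2 CPM of each gene, pooled over 4 groups of 4 samples, and points the median SD of tested genes at a similar mean level. The bars of Hspa1a, Hspa1b and Hsph1 reach 1.46, 1.59 and 0.615, and the other 7 lie between 0.129 and 0.214.

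Hspa1b was read at 20.7, 40.2, 580 and 8.04 CPM in HP1α KO replicates 1 to 4. In HP1α WT it was read at 51.1, 24.9, 210 and 27.1 CPM. In HP1γ KO the values were 9.74, 21.2, 27.9 and 11.4 CPM, and in HP1γ WT 21.0, 9.55, 7.08 and 18.6 CPM. Replicate 3 of both HP1α groups thus stood far above all other samples, and the HP1γ groups overlapped. Hspa1a showed the same order on a lower level, with 9.02, 18.7, 178 and 4.32 CPM in HP1α KO and 26.8, 9.11, 51.4 and 13.4 in HP1α WT. In the HP1γ line Hspa1a was at 4.91, 8.02, 12.6 and 4.61 CPM in KO and 9.57, 3.45, 1.34 and 6.39 in WT. The highest and lowest samples differed 133-fold for Hspa1a and 81.9-fold for Hspa1b. Hspa1a took between 15.9% and 35.0% of the estimated counts of the pair.

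As a sum of both genes, HP1α KO replicate 3 reached 758 CPM and HP1α WT replicate 3 reached 261 CPM, against 8.42 to 77.9 CPM in the other 14 samples (median 29.5). The sum was 9.73-fold and 3.36-fold above the highest of those 14. Ranked by the smaller of the 2 samples' deviations from their group means, Hspa1b was 9th and Hspa1a 48th of 15776 tested genes. Among the 8400 of these with a mean of at least 10 CPM they were 1st and 3rd. The median of Hspa1a was 9.07 CPM, so that its mean passed 10 CPM through its high samples. The 2 samples were singled out by their Hspa1a and Hspa1b levels, so these ranks are a description only. Hsph1 was ranked 8399th of the 8400 on that scale. Other chaperone genes also went either way in these samples, looked up after their values were seen. On the log2 scale Hspb1 deviated by 1.11 in HP1α KO and 1.35 in HP1α WT. Chordc1 deviated by -0.44 and -0.63, and Stip1 by -0.25 and -0.50. The same samples had 34356815 and 27515032 counts. Their B cell markers summed to 26.8 and 20.0 CPM, ranks 1 and 3 of the 16 samples, and their monocyte and macrophage markers to 125 and 85.5 CPM, also ranks 1 and 3. Erythroid and platelet markers were at 174.5 and 544 CPM (range of all samples 16.7 to 1198) and 21 immediate early genes, transcripts that rise within minutes of stimulation, at 17210 and 15577 CPM (ranks 5 and 12). That sum follows the most abundant members, and single genes of the list differed: on the log2 scale Atf3 deviated from its group means by 0.98 and 0.74, Nr4a2 by 0.62 and 0.64, Nr4a1 by 0.60 and 0.43, Fosl2 by 0.54 and 0.33 and Egr2 by 0.51 and 0.41, against -0.27 and -0.40 for Fos and -0.19 and -0.31 for Jun. The part of these markers in the level of Hspa1a and Hspa1b was not tested.

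**Figure D2:**
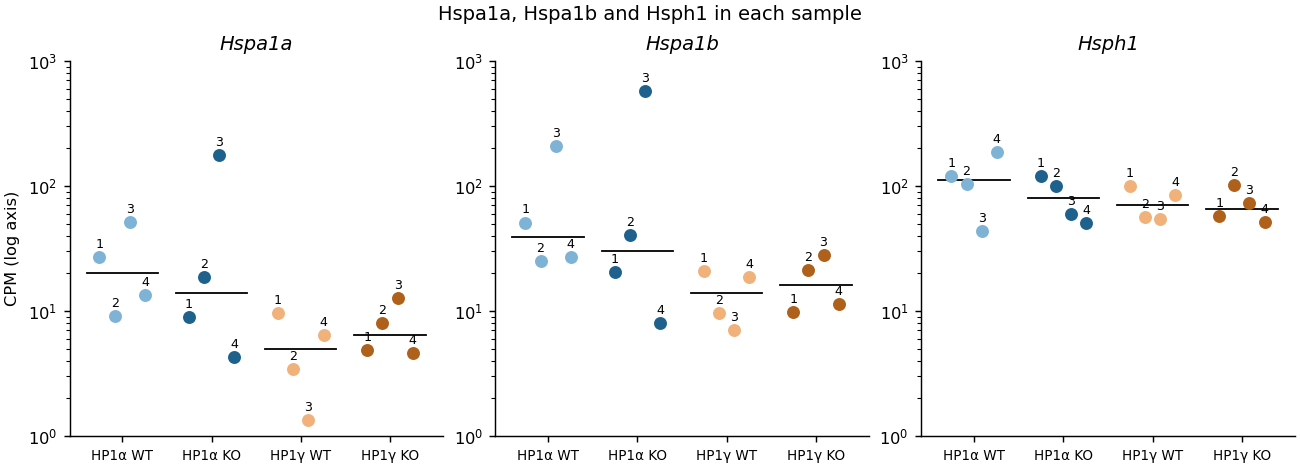
Each point is 1 sample, numbered by replicate, with CPM of Hspa1a, Hspa1b and Hsph1 on a log axis and a line at the group median. Replicate 3 of HP1α KO and WT is highest for Hspa1a (178 and 51.4 CPM) and Hspa1b (580 and 210 CPM), while the Hsph1 value of HP1α WT replicate 3 (43.5 CPM) is the lowest of all.

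Hsph1 followed another order of samples. It was at 120, 101, 59.8 and 50.6 CPM in HP1α KO, and at 121, 104, 43.5 and 187 CPM in HP1α WT. In HP1γ KO the values were 57.2, 103, 73.6 and 51.9 CPM, and in HP1γ WT 101, 56.5, 54.8 and 84.3 CPM. The highest sample was HP1α WT replicate 4, the lowest HP1α WT replicate 3, which is the sample with the second highest Hspa1b, and all groups overlapped. Dnajb1 moved over a far narrower range, from 143 to 205 CPM, with 204 CPM in HP1α KO replicate 3 and 166 CPM in HP1α WT replicate 3. The constitutive and organelle chaperones ranged 1.51-fold for Hsp90ab1, 1.67-fold for Hspa8, 1.55-fold for Hspe1, 1.58-fold for Hspd1 and 1.64-fold for Hspa5 between the lowest and the highest sample. On CPM, HP1γ WT replicate 1 was the highest sample of Hsp90aa1, Hsp90ab1, Hspa8, Hspe1 and Hspa5. HP1α KO replicate 4 was the lowest of Hsp90aa1, Hsp90ab1, Hspa8 and Hspa5 on that scale. On TPM, HP1γ WT replicate 1 was highest only for Hspe1 (164) among these genes. Hsp90aa1 (565) and Hspa5 (1355) were then highest in HP1γ KO replicate 2, and Hsp90ab1 (1456) and Hspa8 (2224) in HP1α WT replicate 4. The lowest TPM of Hspa8 was in HP1α WT replicate 3 (1411).

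**Figure D3:**
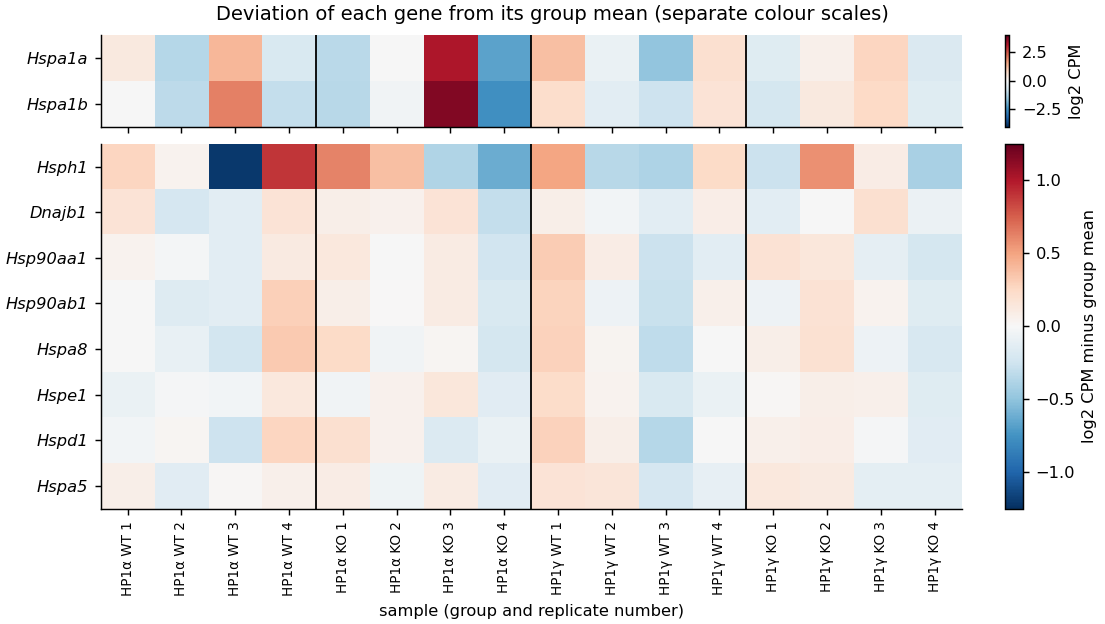
Colours show log2 CPM minus the mean of the sample's own group for the 10 genes (rows) in the 16 samples (columns), with one colour scale for Hspa1a and Hspa1b and a narrower one for the other 8. The deviations of Hspa1b reach 3.70 in HP1α KO replicate 3 and 2.02 in HP1α WT replicate 3, where Hsph1 deviates by -0.38 and -1.21.

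Whether the other 8 genes covaried with Hspa1a and Hspa1b was examined on deviations from the group means, as 8 relations. Over all 16 samples none passed (permutation test with 100000 resamples within groups, two-sided, adjusted p between 0.357 and 0.755 for r and between 0.257 and 0.952 for rho). The largest were Dnajb1 (Pearson's r = 0.52, Spearman's rho = 0.50, permutation p = 0.128 and 0.0811) and Hspe1 (r = 0.49, rho = 0.51, permutation p = 0.0574 and 0.0675). Replicate 3 of HP1α KO and of HP1α WT lay apart from the rest, and they were also the 2 samples farthest from the median of the sum. Among the other 14 samples, a choice made after their values were seen and with group means taken again over these samples, Dnajb1 passed with r = 0.81 and rho = 0.75 (permutation p = 0.00138 and 0.00410, adjusted p = 0.0110 and 0.0328). Hsph1, which had r = -0.17 over 16 samples, had r = 0.70 and rho = 0.68 over these 14 (permutation p = 0.0257 and 0.0306, adjusted p = 0.0737 and 0.0816). Hsp90ab1 had r = 0.64 (permutation adjusted p = 0.0737), and the remaining 5 genes had r between 0.30 and 0.55. With the next 2 farthest samples left out as well, 12 samples, r was 0.77 for Dnajb1 and 0.77 for Hsph1. The other 8 genes correlated among themselves with a median r of 0.74 over their 28 pairs and a range of 0.28 to 0.90 across the 16 samples, given as a description of samples that share library and depth.

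**Figure D4:**
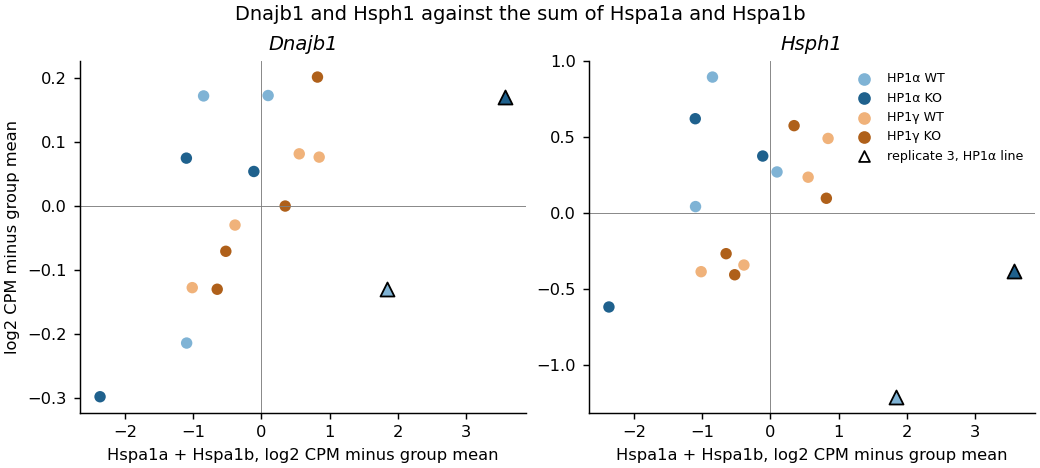
The horizontal axis is the log2 CPM of Hspa1a plus Hspa1b and the vertical axis that of Dnajb1 or Hsph1, each minus the group mean, for 16 samples coloured by group. The triangles, replicate 3 of HP1α KO and WT, lie farthest to the right, and among the other 14 samples, with group means taken again without the triangles, r is 0.81 for Dnajb1 and 0.70 for Hsph1.

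Among 8390 other genes with a mean of at least 10 CPM, those whose deviations were most like the sum of Hspa1a and Hspa1b over the 16 samples were Arhgap25, Impact, Pim3, Sertad2, D030056L22Rik, Kat6b, Atf4, Gadd45b, Gnl1 and 1810013L24Rik, with r from 0.93 to 0.83. Their own spread was small, with an SD between 0.0809 and 0.227 on the log2 scale. Without replicate 3 of HP1α KO and WT, r ranged from 0.18 for 1810013L24Rik to 0.96 for Pim3. The 10 most like Hspa5 were Rsl1d1, Ythdf2, Nsrp1, Selenok, Smarce1, Rbm17, Atf1, Ing3, Dnttip2 and Hspa9, with r from 0.95 to 0.91, and between 0.90 and 0.96 without those samples. For Hsph1, looked up after its values were seen, the 10 highest were Stip1, Ahsa1, Dynll1, Cct6a, Ubxn4, Cct3, Upf3a, Atn1, Setd1b and Nfatc2, with r from 0.92 to 0.87. Of these, 4 are on the chaperone lists: the co-chaperones Stip1 and Ahsa1 and the CCT subunits Cct6a and Cct3. Among the 10 most like Hspa5 the list gene is Hspa9, and among those most like the sum it is Atf4. The share of list genes among the 8390 was not computed, so these are descriptions only.

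Samples with the same replicate number deviated in the same direction for Hspa1b in 4 of 4 numbers between HP1α KO and WT, and in 0 of 4 between HP1γ KO and WT. For Hspa1a it was 3 of 4 and 0 of 4. For Hspa5 the counts were 3 of 4 and 4 of 4, for Hsp90aa1 2 of 4 and 4 of 4, and for Hsp90ab1 0 of 4 in either line. No single pattern by number held across the genes, and no source says that a number marks a shared litter or day.

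HP1α KO was compared with HP1α WT to ask whether the loss of HP1α altered these transcripts. None of the 10 genes passed an adjusted p of 0.05 (edgeR quasi-likelihood test), as 0% of the 14881 genes tested did. With an unadjusted p under 0.05 there were 0 of the 10 and 4.27% of all genes, and DESeq2 called 8 genes, 0 of them among the 10. The groups did not overlap for 0 of the 10, against 3.11% of all genes. Hspa1a and Hspa1b were fitted at log2 fold changes of 1.07 (SE 1.01, 95% interval -1.18 to 3.32) and 1.06 (SE 1.19, -1.58 to 3.69), and 1 sample set that direction: without HP1α KO replicate 3 the values were -1.25 and -1.79. Hsph1 was at -0.46 (SE 0.391, -1.33 to 0.41). The other 7 genes lay between -0.20 for Hspd1 and -0.0018 for Dnajb1, all below 0, with intervals that reached no further than -0.45 and 0.26. The median of the 10 was -0.086, beside 0.0026 for all genes.

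In HP1γ KO against HP1γ WT, 0 of the 10 genes passed the adjusted test (edgeR), beside 0.327% of 14975 genes, and 0 of the 10 had groups that did not overlap, beside 7.59%. DESeq2 also called 0 of the 10. Hspe1 alone had an unadjusted p under 0.05, beside 11.9% of all genes. It was read at 50.5, 52.4, 52.2 and 44.9 CPM in KO and at 69.8, 61.2, 52.2 and 56.3 in WT, a log2 difference of -0.24 (SE 0.0952, 95% interval -0.45 to -0.025, adjusted p = 0.385 by edgeR). The lowest WT sample lay within the range of the KO samples. Hspa8 was at -0.22 (SE 0.126, -0.50 to 0.056) and Hspa1a at 0.56 (SE 0.511, -0.57 to 1.70), and the remaining values lay between -0.15 and 0.34. The median of the 10 was -0.059.

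The 2 knockout effects were set against each other in a fit of all 16 samples. None of the 10 differences passed (edgeR), beside 0.0507% of 15776 genes, and 0 of the 10 had an unadjusted p under 0.05, beside 9.58%. The HP1α effect exceeded the HP1γ effect by 0.51 (SE 1.30, 95% interval -2.24 to 3.26) for Hspa1a and 0.72 (SE 1.43, -2.30 to 3.73) for Hspa1b on the log2 scale, so that differences of several fold in either direction lie within these intervals.

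**Figure D5:**
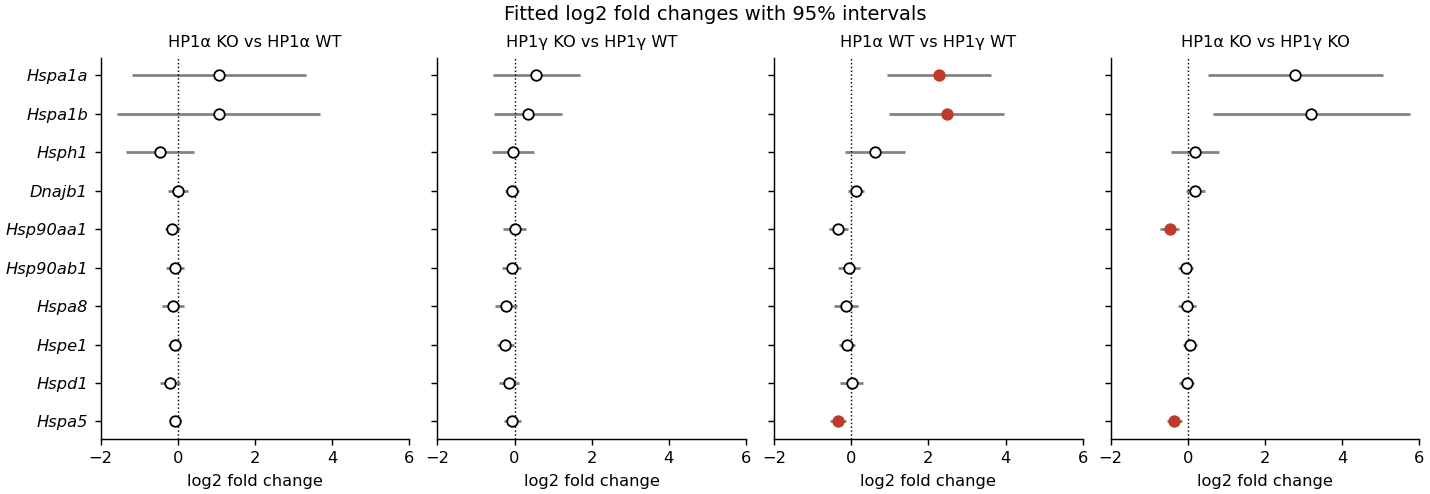
Points are fitted log2 fold changes (edgeR) with 95% intervals of the 10 genes in 4 comparisons of 4 against 4 samples, and filled red points have an adjusted p under 0.05. No point is filled in the comparisons of KO with WT, 3 are in the comparison of the WT groups and 2 in that of the KO groups.

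HP1α WT was set against HP1γ WT to show how the genes differ between lines with no HP1 gene deleted. Between HP1α WT and HP1γ WT, 3 of the 10 genes passed an adjusted p of 0.05 (edgeR), beside 12.8% of 14804 genes. Hspa1a and Hspa1b were higher, as 4.55% of all genes were called, and Hspa5 was lower, as 8.25% were. Hspa1a was higher by 2.28 on the log2 scale (SE 0.610, 95% interval 0.93 to 3.63, adjusted p = 0.0364) and Hspa1b by 2.48 (SE 0.676, 0.99 to 3.97, adjusted p = 0.0387). Every HP1α WT sample of Hspa1b exceeded every HP1γ WT sample, while Hspa1a overlapped in 1 sample of either group. Without HP1α WT replicate 3 the changes were 1.65 and 1.28 (adjusted p = 0.0787 and 0.0556, edgeR). The calls were also lost without HP1α WT replicate 1 or any 1 of the HP1γ WT samples (adjusted p up to 0.106 and 0.110), although the changes then stayed between 1.96 and 2.75 for Hspa1a and between 2.25 and 2.73 for Hspa1b. The adjusted p ranged from 0.00651 to 0.115 for Hspa1a and from 0.00653 to 0.134 for Hspa1b over 18 alternatives.

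Hspa5 was read at 1339, 1156, 1286 and 1331 CPM in HP1α WT and at 1793, 1770, 1380 and 1483 CPM in HP1γ WT. All HP1α WT samples were below all HP1γ WT samples, with a log2 fold change of -0.34 (SE 0.0969, 95% interval -0.55 to -0.13, adjusted p = 0.0447, edgeR). The groups did not overlap for 2 of the 10 genes, Hspa1b and Hspa5, beside 19.6% of all genes. The call of Hspa5 was lost without any 1 of the HP1α WT samples or HP1γ WT replicate 1 or 2, at log2 fold changes between -0.28 and -0.36, and its adjusted p ranged from 0.00069 to 0.133 over the 18 alternatives. Hsp90aa1 was at 458, 436, 406 and 481 CPM in HP1α WT and 683, 583, 454 and 500 in HP1γ WT, with a log2 fold change of -0.33 (SE 0.116, adjusted p = 0.0835 by edgeR). The remaining 6 genes lay between -0.13 for Hspa8 and 0.61 for Hsph1 and did not pass.

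The KO groups of the lines, which share no sample with the WT groups, were compared in the same way after the WT values were seen. Here 2 of the 10 genes passed (edgeR), beside 32.8% of 15020 genes, and both were lower in HP1α KO, as 16.8% of all genes were. Hspa5 was at 1285, 1168, 1298 and 1096 CPM in HP1α KO and 1664, 1636, 1394 and 1390 in HP1γ KO, a log2 fold change of -0.35 (SE 0.0844, 95% interval -0.54 to -0.16, adjusted p = 0.0110). Hsp90aa1 was at 442, 401, 433 and 340 CPM against 621, 603, 506 and 470, a log2 fold change of -0.47 (SE 0.110, -0.71 to -0.23, adjusted p = 0.0100). These 2 genes were also the ones whose groups did not overlap, beside 32.9% of all genes, and both kept their calls under all 17 alternatives, with adjusted p up to 0.0374 and 0.0334. None of the 10 was called higher, beside 16% of all genes. Hspa1a and Hspa1b were at 2.79 (SE 1.02, adjusted p = 0.0584, edgeR) and 3.19 (SE 1.15, adjusted p = 0.0554), and at 0.47 and 0.36 without HP1α KO replicate 3. In both genotypes, then, Hspa5 was lower in the HP1α line, at 0.790 and 0.784 times the level of the HP1γ line.

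The lines come from separate crosses, and no source says that they were sorted or sequenced together, so that line, cohort and handling cannot be told apart. Memory T cell markers, 6 genes that were all detected, summed to 1673 to 1894 CPM in HP1α WT and 2027 to 2117 CPM in HP1γ WT, without overlap, and to 1767 to 1893 in HP1α KO and 1604 to 2131 in HP1γ KO, with overlap. Monocyte and macrophage markers summed to 33.5 to 88.6 CPM in HP1α WT and 27.9 to 46.7 in HP1γ WT. In the KO groups they summed to 41.5 to 125 CPM (HP1α) and 37.7 to 60.4 (HP1γ). Erythroid and platelet markers summed to 35.9 to 188 CPM in HP1α KO and 82.0 to 1198 in HP1γ KO. In the WT groups they summed to 16.7 to 544 CPM (HP1α) and 45.9 to 531 (HP1γ). Dendritic cell markers summed to 17.2 to 31.2 CPM in HP1α WT and 17.9 to 77.1 in HP1γ WT. In HP1α KO they summed to 19.9 to 54.2 CPM, and in HP1γ KO to 40.1 to 155. The monocyte and macrophage, erythroid and platelet, and dendritic cell sums overlapped between the lines. Single markers differed: 5 of 6 tested erythroid and platelet and 2 of 5 dendritic cell markers were called lower in HP1α KO (edgeR). Of the 6 memory T cell markers, 2 were called lower in HP1α WT and 1 in HP1α KO. None of these lists had a marker called higher. The shares of all genes called lower were 8.25% (WT) and 16.8% (KO). The part of these markers in the line differences was not tested.

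Related chaperone genes were described from lists. In either comparison of KO with WT, none of the tested genes of 5 lists passed an adjusted p of 0.05 (edgeR): 3 heat shock factors, 35 other cytosolic chaperones and co-chaperones, 14 subunits of CCT and prefoldin, 10 mitochondrial chaperones and proteases and 24 genes of the endoplasmic reticulum and unfolded protein response. In HP1γ KO, 5 of the last list had an unadjusted p under 0.05, beside 11.9% of all genes, with negative values. The largest were Pdia3 (-0.20), Canx (-0.19) and Ppib (-0.18), which help fold secretory proteins and did not pass the adjusted test, and the list median was -0.11 beside 0.0005 for all genes. Of the heat shock factors in that comparison, Hsf4 was at -0.39 (SE 0.131, adjusted p = 0.340 by edgeR). Hsf1 went the other way, at 0.14 (SE 0.0607, adjusted p = 0.399 by edgeR). In HP1α KO the values with an unadjusted p under 0.05 were Hspa13 (-0.23) and Pfdn6 (0.18).

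Between the lines more list genes passed. Of the 24 genes of the endoplasmic reticulum list, 5 were called lower in HP1α WT than in HP1γ WT and 0 higher, beside 8.25% and 4.55% of all genes: Eif2ak3 (-0.77) and Ern1 (-0.62), which encode the stress sensors PERK and IRE1α, Xbp1 (-0.52), the transcription factor that IRE1α activates, and the luminal chaperones Calr (-0.32) and P4hb (-0.30). In HP1α KO against HP1γ KO 7 were called lower and 0 higher, beside 16.8% and 16% of all genes, with Eif2ak3 (-0.92), Ern1 (-0.78), Xbp1 (-0.60) and Calr (-0.17) again among them. The list median was -0.16 in the WT and -0.062 in the KO comparison, beside 0.015 and 0.010 for all genes tested. Of these calls, 1 of 5 (Ern1) and 4 of 7 (Dnajb9, Eif2ak3, Ern1 and Xbp1) held under every alternative. Xbp1 is also a marker of plasma cells, whose other 3 markers (Jchain, Mzb1 and Sdc1) summed to 8.53 to 33.2 CPM in HP1α WT and 9.45 to 22.0 in HP1γ WT, with overlap. In the KO groups they summed to 13.3 to 52.3 CPM (HP1α) and 10.4 to 23.6 (HP1γ), also with overlap. Of all 4 plasma cell markers, Xbp1 among them, 2 were called lower in the HP1α line and 0 higher in either comparison (edgeR). The shares of all genes called lower were 8.25% and 16.8%. The part of plasma cells was not tested.

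Of 34 other cytosolic chaperones and co-chaperones, 6 were called lower and 2 higher in HP1α WT, beside 8.25% and 4.55% of all genes. The lower ones were Hspa2 (-0.96), Dnajb6 (-0.56), Dnajb4 (-0.50), Dnajb2 (-0.44), Bag5 (-0.41) and Dnaja2 (-0.33), J-domain proteins apart from the HSP70 Hspa2 and the exchange factor Bag5. The higher ones were Ahsa2 (0.48) and Fkbp5 (0.37), HSP90 co-chaperones, and Ahsa2 lay at the threshold. Of these 8 calls, 1 (Hspa2) held under every alternative. In the KO comparison 10 of 35 were called lower and 7 higher, beside 16.8% and 16% of all genes, and 10 of the 17 calls held under every alternative. Of the 10 mitochondrial genes, 1 was called lower between the WT groups and 0 higher, beside 8.25% and 4.55% of all genes. It was Hspa9 (-0.35), the mitochondrial HSP70. Between the KO groups 3 were called higher, Dnaja3 (0.66), Clpp (0.29) and Trap1 (0.22). There 2 were called lower, Grpel2 (-0.42) and Hspa9 (-0.31), beside 16% higher and 16.8% lower of all genes. None of the 14 CCT and prefoldin subunits was called in the WT comparison, beside 12.8% of all genes. In the KO comparison 4 were called higher and 1 lower, beside 16% and 16.8% of all genes. No heat shock factor was called between the WT groups, and Hsf2 was called lower between the KO groups (-0.41, adjusted p = 0.0226 by edgeR). Among the 21 immediate early genes, Atf3 (-1.50), Fosl2 (-1.19), Nr4a2 (-0.82) and Klf4 (-0.72) were called lower in HP1α WT and none higher, beside 8.25% and 4.55% of all genes. Between the KO groups 5 were called higher, with Fos (0.46) and Jun (0.51) among them, and 4 lower, beside 16% and 16.8% of all genes.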

How the data were processed

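RNA-Seq of sorted splenic memory CD4+ T cells was analysed in 16 samples, grouped by the submitters' titles and genotype labels. The treatment tag names a transfer experiment that the memory cells did not come from, and it was not used. The members and the gene lists were chosen with earlier results of these data known. Stranded mRNA libraries were sequenced as paired 150 bp reads. The authors ran nf-core/rnaseq (Trim Galore, STAR on Ensembl GRCm39, Salmon) and deposited estimated counts per gene, not normalized, of which 11.6% are not whole. The authors also deposited TPM, which keep no depth.

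Estimated counts were rounded and tested with edgeR 4.0.16 in R 4.3.3: TMM normalization, filterByExpr with a minimum count of 10, glmQLFit, glmQLFTest and Benjamini-Hochberg adjustment over all genes tested, in fits of the 8 samples compared (16 for the difference of effects). A call is an adjusted p under 0.05. Intervals of fold changes are 95% and use the fitted standard error. CPM were scaled by TMM over the 16 samples, and log2 CPM used a prior count of 2. The code was tested on simulated data. Alternatives were DESeq2 1.42.0, RLE size factors, other filters, limma 3.58.1 on log2(TPM + 1) or log2(TPM + 0.1), Hspa1a and Hspa1b summed, a replicate block, all samples in one fit and omission of each sample. Genes named beyond the members are those of the lists past the adjusted threshold, those with the largest changes at an unadjusted p under 0.05, and the 10 most alike to the sum of Hspa1a and Hspa1b or to Hspa5. In the lists of the KO comparison, genes are given as counts with examples. Coordinates, windows and motifs are from a GENCODE annotation and genome of GRCm39, in which 56017 genes were matched. Its release differs from that used for counting. Shared sequence was looked up with blastn 2.17.0. Counting error alone is small at these depths of 26694045 to 40199637 counts.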

Additional observations from a re-analysis of the deposited data

Results flagged for a closer look

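In 40 sets of 4 CPM values, not logged, 1 for each gene and group, 3 highest samples lay apart from the others by more than Dixon's 95% critical value for the share of the range. Chance flags about 1 in 20 sets of normally distributed values, a rate that need not hold for CPM. On log2 CPM, a scale added after seeing the data, 0 of the 40 sets passed. All 3 belong to replicate 3 of the HP1α line. Hspa1a was read at 178 CPM in HP1α KO replicate 3, with a gap of 0.917 of the range to the next sample. Hspa1b was read at 580 CPM in the same sample (gap 0.944 of the range) and at 210 CPM in HP1α WT replicate 3 (gap 0.859). On log2 CPM these gaps were 0.607, 0.625 and 0.664 of the range. Hspa1a in HP1α WT and the other 8 genes gave no such value on either scale.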

How the results depend on the processing

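Of 2586 alternative values for 162 results, 2240 kept their direction and side of the threshold, 230 lost a call, 39 gained one, 64 changed sign and 13 counts moved. The cause of these changes was not tested. Alternatives that left out replicate 3 of HP1α KO and WT together, and the comparison of the KO groups, were added after seeing the data.

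In HP1α KO against WT, Hspa1a turned to -0.012 and -0.083 with limma on log2(TPM + 1) and log2(TPM + 0.1), to -0.63 without replicate 3 of either group and to -0.74 when a replicate block was added to that. Hspa1b turned to -0.17, -0.22, -0.59 and -0.77 under the same settings and to -0.12 with the replicate block alone. Dnajb1 was at 0.000649 with RLE size factors and 0.000654 with DESeq2. In HP1γ KO against WT, Hsp90aa1 was at -0.0045 without a filter and Hspa5 at 0.00676 on both TPM scales. The difference of the effects turned for Hspa1a to -0.62 with the replicate block, -0.58 and -0.88 on the TPM scales and -1.19 without the replicate 3 samples, and for Hspa1b to -0.48, -0.54, -0.63 and -0.92. None of these values was called before or after. Between the WT groups Hspd1 was at -0.0099 when averaged over genotypes. Between the KO groups Hspa8 was at 0.0066 without a filter and Hspe1 at -0.042 on both TPM scales. The correlation with the sum of Hspa1a and Hspa1b became -0.13 for Hspa8 on the TPM scale, and 0.70 for Hsph1 and 0.46 for Hspd1 without the replicate 3 samples, where 1 of 8 relations passed against 0.

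Calls between the WT groups were the least stable. The 3 calls became 0 with the replicate block, where adjusted p (edgeR) was 0.101 for Hspa1a, 0.134 for Hspa1b and 0.107 for Hspa5, and 1 when all 16 samples entered one fit. Here the block pairs samples of separate lines by number only. The deviations of the paired WT samples correlated at -0.204 to -0.066 over genes, so the lost calls do not show an effect of replicate number. Leaving out 1 sample at a time gave 0 to 2 calls, with 0 without HP1α WT replicate 1 or 3 or HP1γ WT replicate 1 or 2. Hsp90aa1 gained a call with DESeq2 (adjusted p = 0.0396), without HP1γ WT replicate 3 (adjusted p = 0.0398, edgeR) and averaged over genotypes (adjusted p = 0.00163, edgeR). Of list genes called between the WT groups, the replicate block ended 4 of 5 in the endoplasmic reticulum list (adjusted p 0.0513 to 0.0788, edgeR), 6 of 8 other cytosolic chaperones, Hspa9, and 1 of 4 immediate early genes, and between the KO groups 1 of 7, 3 of 17, 1 of 5 mitochondrial genes and 2 of 9 of these lists, and 1 of 5 CCT and prefoldin subunits. Between the KO groups the 2 calls became 4 without a filter, with at least 10 counts in every sample and with all 16 samples in one fit, and 2 to 5 with 1 sample left out.

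With 1 sample left out, HP1α KO values ranged from -1.25 to 1.69 for Hspa1a, -1.79 to 2.25 for Hspa1b, -0.072 to 0.089 for Dnajb1 and -0.14 to 0.024 for Hsp90ab1. HP1γ KO values ranged from -0.26 to 0.15 for Hsph1, -0.073 to 0.13 for Hsp90aa1, -0.16 to 0.022 for Hsp90ab1 and -0.12 to 0.00101 for Hspa5. The difference of the effects ranged from -1.81 to 1.13 for Hspa1a and -2.12 to 1.91 for Hspa1b. Between the WT groups the range was -0.17 to 0.036 for Hsp90ab1 and -0.093 to 0.11 for Hspd1. Between the KO groups it was -0.037 to 0.42 for Hsph1, -0.11 to 0.00144 for Hsp90ab1, -0.095 to 0.054 for Hspa8, -0.0064 to 0.092 for Hspe1 and -0.095 to 0.022 for Hspd1. Correlations ranged from -0.46 to 0.70 for Hsph1, -0.036 to 0.36 for Hspa8 and -0.31 to 0.26 for Hspd1 with 1 replicate number left out.

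The same replicate number in KO and WT did not pair samples by the rule used: the correlation of their deviations over genes was 0.094 to 0.229 in the HP1α line and 0.0031 to 0.153 in the HP1γ line, over 0.1 in 3 of 4 and 2 of 4 pairs. The lowest value of the 10 genes was 44.1 estimated counts, for Hspa1a.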
